A study of Mus musculus with 2 samples.

Results

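A group of 10 genes of the acute phase and STAT3 response (Lrg1, Cebpd, Cebpb, Socs3, Bcl3, Pim1, Osmr, Steap4, Saa3 and Stat3) was examined in the spleen of mice with acetaminophen (APAP)-induced acute liver injury. The genes were taken by symbol from a table of 22791 genes, and each symbol matched 1 row. Male C57BL/6J mice of 9 to 11 weeks, all without a genetic alteration and all fasted for 10 h beforehand, had received 300 mg/kg APAP or 0.9% NaCl (ctrl) intraperitoneally, and spleens were taken at 30 h. Splenic RNA of 11 APAP-treated mice and of 5 ctrl mice was pooled per group and sequenced from the 3′ ends of the transcripts by massive analysis of cDNA ends (MACE). Each group thus has 1 library, differences between both libraries have no replicate check, and no p-value is given.

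The acute phase response is the change in plasma proteins that follows tissue injury. Interleukin (IL)-6, oncostatin M and related cytokines bind receptors that share the chain gp130 (Il6st), the attached Janus kinases phosphorylate the transcription factor STAT3, and STAT3 together with factors of the C/EBP family switches on acute phase genes. In the liver these genes encode secreted plasma proteins. In the spleen, myeloid and stromal cells use many of the same regulators, and Lrg1 is also known from neutrophils and Saa3 from activated macrophages.

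Library totals were 2890947 counts for APAP and 2735788 for ctrl. Levels are given as CPM, the count of a gene scaled to the total of its library. Since MACE reads 1 end of a transcript, they were not divided by gene length. Ratios are counts of APAP over ctrl after division by DESeq2 size factors (1.05 for APAP and 0.949 for ctrl) and stand with a 95% interval of counting error, which holds no variation between mice or pools. A gene met the size rule if it had 20 or more counts in the sum of both libraries, differed 2-fold or more upwards or downwards, and had an interval without 1. All 10 genes had the 20 counts. Spleen markers were present in both libraries, with 12 of 12 lymphocyte markers detected (Ighm with 22087 counts in APAP and 18484 in ctrl, Cd74 with 7460 in APAP and 7922 in ctrl), whereas 23 markers of the adjoining pancreas took 2.14% of all counts in APAP and 7.06% in ctrl, led by Ctrb1 (7597 counts in APAP, 22539 in ctrl) and Amy2a5 (7260 in APAP, 21806 in ctrl). Of the 12 lymphocyte markers, 11 had a ratio below 1 and 1, Ighm, a ratio above it. Their intervals lay below 1 for 8 and above 1 for 1. The median ratio was 0.826, and the ratio of their sum was 0.971 (0.957 to 0.986). In bulk RNA, more cells of a type and more RNA per cell cannot be told apart.

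Of the 10 genes, 3 met the size rule as higher in APAP and 0 as lower. These were Lrg1, Cebpd and Saa3. Over all 12929 genes with at least 20 counts, 1.39% were higher by the rule, 1.68% were lower and 3.07% were either. A ratio above 3 was found for Saa3 and Lrg1, that is 2 of the 10 genes, against 0.371% of all genes. An interval above 1 was found for 5 of the 10, which adds Cebpb and Stat3, against 9.13% of all genes, and none had an interval below 1, against 6.57% of all genes. A ratio above 1 was found for 9 of the 10, against 53.4% of all genes, the exception being Bcl3. The median log2 ratio of the 10 genes was 0.46, beside 0.02 over all genes. As the 10 genes were chosen with earlier results of these data known, these shares describe the group and are no test of it.

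The promoters of 9 of the 10 genes were found in the RefSeq table of the build GRCm38.p6, which is mm10, as windows of 300 bases that run from 250 bases before the start of the gene to 50 bases after it. The gene without an entry was Cebpd. Windows were searched on both strands for the STAT motif TTCNNNGAA, which reads the same on either strand, and the C/EBP motif TTGCNNAA (TTNNGCAA on the other strand). Below are the 3 windows that held either motif and that of Lrg1, which held neither and belongs to the gene with the most counts in APAP. Capitals mark the matches, and no match overlapped one of the other motif.
Steap4, chr5:7960222-7960521, plus strand: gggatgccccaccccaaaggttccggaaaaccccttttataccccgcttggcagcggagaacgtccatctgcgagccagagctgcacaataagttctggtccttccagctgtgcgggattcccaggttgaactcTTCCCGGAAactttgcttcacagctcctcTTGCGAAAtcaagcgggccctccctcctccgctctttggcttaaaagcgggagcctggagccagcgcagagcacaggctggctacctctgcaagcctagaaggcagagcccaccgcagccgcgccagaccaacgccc
Socs3, chr11:117969317-117969616, minus strand: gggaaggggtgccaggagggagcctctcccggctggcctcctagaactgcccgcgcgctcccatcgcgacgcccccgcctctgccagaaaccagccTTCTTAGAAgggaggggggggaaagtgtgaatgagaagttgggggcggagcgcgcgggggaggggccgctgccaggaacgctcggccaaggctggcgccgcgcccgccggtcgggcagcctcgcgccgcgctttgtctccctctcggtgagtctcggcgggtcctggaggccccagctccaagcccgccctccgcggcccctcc
Saa3, chr7:46715627-46715926, minus strand: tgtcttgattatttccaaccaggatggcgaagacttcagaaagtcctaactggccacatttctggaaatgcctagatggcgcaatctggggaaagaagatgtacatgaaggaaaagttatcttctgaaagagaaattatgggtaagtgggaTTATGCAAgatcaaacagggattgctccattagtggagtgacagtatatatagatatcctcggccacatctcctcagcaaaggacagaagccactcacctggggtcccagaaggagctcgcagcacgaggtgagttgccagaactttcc
Lrg1, chr17:56121897-56122196, minus strand: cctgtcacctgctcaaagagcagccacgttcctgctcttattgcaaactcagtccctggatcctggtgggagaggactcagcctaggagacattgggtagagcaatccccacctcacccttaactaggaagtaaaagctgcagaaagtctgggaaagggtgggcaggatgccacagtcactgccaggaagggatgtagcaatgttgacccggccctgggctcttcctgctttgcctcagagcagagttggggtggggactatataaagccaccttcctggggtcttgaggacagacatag

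The STAT motif stood in Steap4, 116 bases before the start (TTCCCGGAA), and in Socs3, 154 bases before the RefSeq start (TTCTTAGAA). In the GENCODE annotation the Socs3 window lies within the span of the gene, which reaches further upstream, so that the start of Socs3 differs between both annotations. The STAT motif was held by 8.30% of all 32851 windows of the table and by 6.89% of those of genes with at least 20 counts. The C/EBP motif stood in Steap4, 87 bases before the start (TTGCGAAA), and in Saa3, 99 bases before it (TTATGCAA). It was held by 10.8% of all windows and by 8.67% of those of genes with at least 20 counts. A loose kappa B motif stood in 7 of 10 windows of the genes, Pim1 having 2 windows, in 50.8% of all windows and in 66.8% of those of genes with at least 20 counts. Such matches are descriptions of letters and not binding sites. Steap4, whose window held both motifs, did not meet the size rule, nor did Socs3. Lrg1 met it with neither motif in its window and Saa3 with the C/EBP motif alone. Cebpd, which also met it, had no window, and a relation between motifs and ratios was not tested.

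Lrg1 encodes leucine-rich alpha-2-glycoprotein, an acute phase glycoprotein made by hepatocytes and stored in neutrophil granules. It had 413 counts in APAP and 102 in ctrl, that is 143 CPM (129 to 157) in APAP and 37.3 CPM (30.4 to 45.3) in ctrl, and the ratio was 3.64 (2.93 to 4.57). Among the 10 genes its level was at place 1 in APAP and at place 4 in ctrl. Lrg1 alone made up 27.4% of the summed counts of the group in APAP and 11.7% in ctrl. Without it, the sum of the other 9 genes was 378 CPM in APAP and 282 CPM in ctrl (ratio 1.27, 1.16 to 1.40), compared with 521 CPM and 319 CPM (1.55, 1.42 to 1.69) for all 10. In mm10, Lrg1 occupies bases 56119678 to 56122001 of chromosome 17 (minus strand) and shares no exon base with another gene.

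Saa3, a serum amyloid A gene that mice express outside the liver, in macrophages among other cells, was low in both libraries. It had 26 counts in APAP and 6 in ctrl (8.99 CPM, 5.87 to 13.2, and 2.19 CPM, 0.805 to 4.77). Its ratio of 3.90 was the highest of the group but rests on 32 counts, and the interval from 1.57 to 11.6 includes every value that Lrg1 and Cebpd could take within theirs. Saa3 lies on chromosome 7 from 46711998 to 46715700. Saa1, one of the liver-made family members, lies nearby on the same strand from 46740497 to 46742980 and had 7 counts in APAP and 24 in ctrl (0.263, 0.0955 to 0.628). Both genes thus stood on opposite sides of 1, and the ratio of Saa3 exceeded that of Saa1 14.0-fold (3.82 to 61.0). Saa2 had 6 counts in APAP and 7 in ctrl (0.771, 0.214 to 2.68). Against Saa2 the ratio of Saa3 was 4.84-fold, with an interval that includes 1 (0.997 to 25.8). Since Saa1 and Saa2 are close copies, their reads may have been split between them.

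Cebpd encodes C/EBP delta, a factor that is low at rest and inducible by IL-6. It had 139 counts in APAP and 53 in ctrl (48.1 CPM, 40.4 to 56.8, and 19.4 CPM, 14.5 to 25.3), with a ratio of 2.36 (1.71 to 3.30). Cebpb encodes C/EBP beta, formerly NF-IL6, and stood at 153 counts in APAP and 98 in ctrl (52.9 and 35.8 CPM). Its ratio of 1.41 (1.08 to 1.83) did not reach 2. The ratio of Cebpd exceeded that of Cebpb 1.68-fold (1.10 to 2.58). Both levels were close to each other in APAP, with intervals that overlap, while in ctrl the level of Cebpd was below that of Cebpb. In the same family Cebpa, the factor of resting myeloid progenitors and hepatocytes, had 75 counts in each library (0.900, 0.645 to 1.26), and Cebpe, a factor of late granulocyte differentiation, met the size rule with 22 counts in APAP and 3 in ctrl (6.60, 1.98 to 34.4). Cebpd (chromosome 16, 15887286 to 15891031, plus strand) and Cebpb (chromosome 2, 167688915 to 167690418, plus strand) share exon bases with genes on the opposite strand. For Cebpd this is Spidr over 562 bases, with 0 counts in APAP and 1 in ctrl, and for Cebpb it is Tmem189 over 312 bases, which had 170 counts in APAP and 111 in ctrl. As the strand setting of the counting is not given in the sources used here, reads from those bases cannot be assigned with certainty.

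Stat3, the transcription factor itself and one of its own targets, had 278 counts in APAP and 185 in ctrl. Its level was 96.2 CPM (85.2 to 108) in APAP and 67.6 CPM (58.2 to 78.1) in ctrl, and the ratio of 1.35 (1.12 to 1.64) missed the size rule by its size. It was the most abundant of the 10 genes in ctrl. Stat3 (chromosome 11, 100885098 to 100939540, minus strand) lies tail to tail with Stat5a, with which it shares 72 exon bases at the 3′ end, the part that MACE reads. Stat5a had 51 counts in APAP and 59 in ctrl (0.778, 0.524 to 1.15), and the ratio of Stat3 exceeded that of Stat5a 1.74-fold (1.12 to 2.70). Against Stat5b, which had 174 counts in APAP and 153 in ctrl, the interval included 1 (1.32, 0.982 to 1.78).

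Osmr, the receptor chain that pairs with gp130 to bind oncostatin M, had 68 counts in APAP and 46 in ctrl (23.5 and 16.8 CPM). The ratio of 1.33 (0.902 to 1.98) has an interval that includes 1. Steap4, a metalloreductase of inflamed tissue and adipocytes, had 26 counts in APAP and 16 in ctrl (8.99 and 5.85 CPM), and the ratio of 1.46 (0.756 to 2.92) left both no difference and a doubling within its interval. At this depth neither gene differed detectably between the libraries. Osmr occupies bases 6813577 to 6874969 of chromosome 15 (minus strand) and Steap4 bases 7960457 to 7982213 of chromosome 5 (plus strand).

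Socs3, Pim1 and Bcl3 are targets of the pathway that act back on signalling, survival and NF-kB. Socs3, the inhibitor that binds gp130 and ends STAT3 activation, had 71 counts in APAP and 61 in ctrl (24.6 CPM, 19.2 to 31.0, and 22.3 CPM, 17.1 to 28.6), a ratio of 1.05 (0.733 to 1.5). Pim1, a survival kinase, had 174 counts in APAP and 153 in ctrl (60.2 and 55.9 CPM), a ratio of 1.02 (0.819 to 1.28). Bcl3, an atypical inhibitor of NF-kB that acts in the nucleus, had 157 counts in APAP and 154 in ctrl (54.3 and 56.3 CPM), a ratio of 0.918 (0.730 to 1.15). Levels of these 3 genes overlapped between the libraries within counting error, and the intervals of Pim1 and Bcl3 do not reach a difference of 1.5-fold, higher or lower. Socs3 lies on chromosome 11 from 117966079 to 117970047, Pim1 on chromosome 17 from 29490753 to 29496112 and Bcl3 on chromosome 7 from 19808462 to 19822770. Pim1 shares 488 exon bases with the opposite-strand gene Gm26885, which had 2 counts in APAP and 0 in ctrl, and Bcl3 shares 161 with Gm16175.

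**Figure D1:**
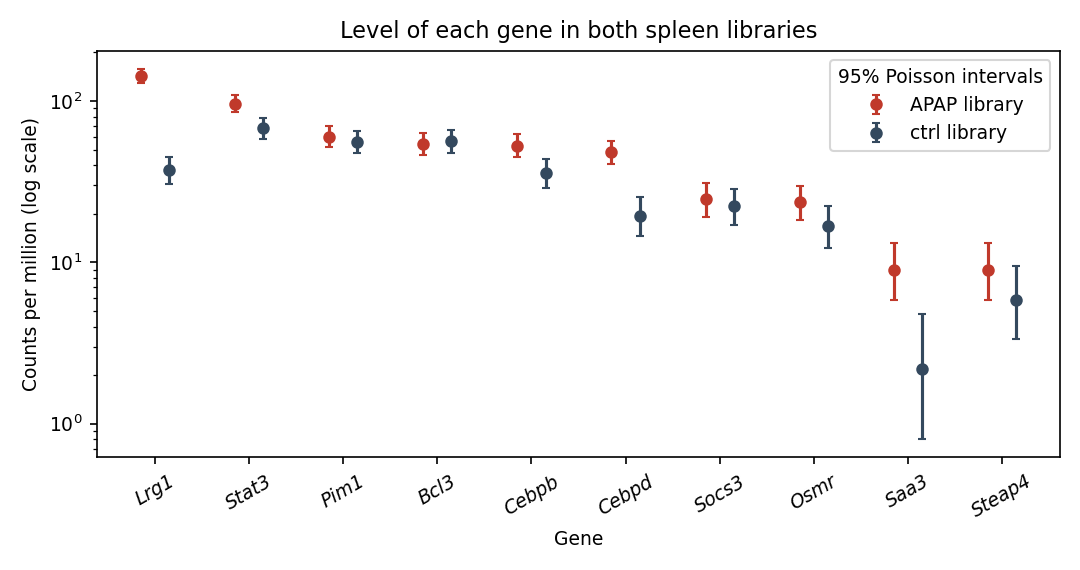
Level of each gene in CPM on a log axis (y) for the 10 genes (x), with the APAP library left of the ctrl library and bars for 95% Poisson intervals of counting error. The intervals of both libraries do not overlap for Lrg1, Stat3, Cebpb, Cebpd and Saa3 and overlap for the other 5 genes. Levels are scaled to library totals and not by size factors, and 6.26% of all genes with at least 20 counts had non-overlapping intervals with the higher level in APAP.

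Beyond counting error, the 10 genes did not share 1 common ratio between these 2 libraries. Between 2 genes the ratio of ratios does not depend on the scaling of the libraries. Of 45 pairs compared in this way 22 had an interval that excludes 1, without adjustment for the number of pairs. These intervals hold no variation between mice or pools, and the share for pairs of all genes was not counted. Of the 22 pairs, 14 remained when pairs with Lrg1 were left out, of 36. In the order from Saa3 (3.90) down to Bcl3 (0.918), 8 of 9 neighbours could not be told apart within counting error. The exception was the step between Lrg1 and Cebpd, with 1.54 (1.03 to 2.30). Lrg1 exceeded Socs3 by 3.47 (2.27 to 5.31), Pim1 by 3.55 (2.59 to 4.90) and Bcl3 by 3.96 (2.88 to 5.48). The 3 genes that met the size rule ranged between 2.36 and 3.90, and the other 7 between 0.918 and 1.46.

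**Figure D2:**
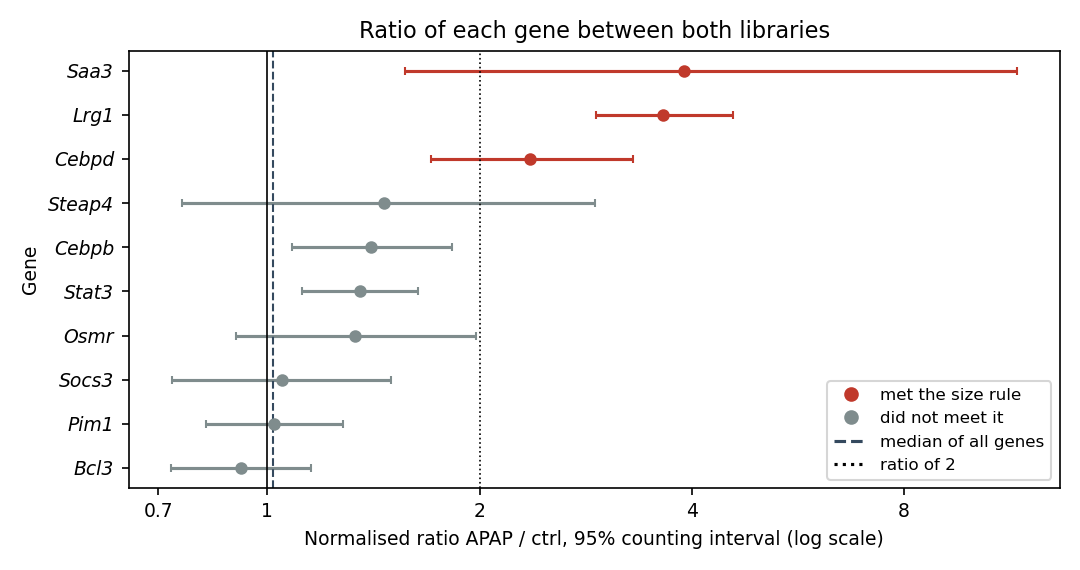
Normalised ratio APAP / ctrl of each gene (x, log axis) with its 95% interval of counting error, ordered from the highest ratio at the top. Saa3 (3.90), Lrg1 (3.64) and Cebpd (2.36) met the size rule, while Socs3 (1.05), Pim1 (1.02) and Bcl3 (0.918) lay around the median of all genes (1.02).

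Upstream of STAT3, the cytokines of the pathway were hardly covered. Of 13 listed ligands, 10 had a count in either library and 2 had 20 counts, and neither met the size rule. Clcf1, a ligand that signals through gp130, had 176 counts in APAP and 175 in ctrl (0.905, 0.730 to 1.12), and oncostatin M (Osm) had 16 counts in APAP and 10 in ctrl (1.44, 0.614 to 3.55). Il6 itself, named although it falls outside the naming rule, had 1 count in each library, which allows no statement on its change. Among 9 receptors with 20 counts, 0 met the rule in either direction, 1 had an interval above 1 and 3 had one below. Il6st, the gp130 chain, had 405 counts in APAP and 295 in ctrl with an interval above 1 (1.24, 1.06 to 1.44), whereas Il10ra, the IL-10 receptor chain, had 241 counts in APAP and 293 in ctrl with an interval below it (0.740, 0.622 to 0.881).

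Of the other signal transducers, 0 of 10 Janus kinases and STATs met the size rule, and 8 of 10 had a ratio below 1 (median log2 ratio -0.20). In this list 3 intervals lay below 1 and 0 above. Jak1, the main kinase at gp130, had 683 counts in APAP and 618 in ctrl (0.995, 0.891 to 1.11). Stat3 is not part of that list. Among 13 genes that restrain the pathway, namely SOCS genes, phosphatases and the PIAS genes Pias1 and Pias3, 0 met the rule (median 0.17), and 1 interval lay below 1, that of the phosphatase gene Ptpn6 with 1045 counts in APAP and 1176 in ctrl (0.800, 0.735 to 0.870). Ptpn1 had 408 counts in APAP and 322 in ctrl (1.14, 0.983 to 1.32).

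Other target genes of STAT3 were mixed. Of 18 with 20 counts, 1 met the rule as higher, 0 met it as lower, 5 had a ratio above 1 and 13 below, 3 had an interval above 1 and 2 below, and the median log2 ratio was -0.11. The gene that met it was Timp1, an inhibitor of metalloproteinases, with 29 counts in APAP and 11 in ctrl (2.37, 1.15 to 5.26). Among 12 relatives of the group (further C/EBP, PIM, STEAP and NF-kB genes) Cebpe was the 1 gene that met the rule, and the median was -0.12.

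Acute phase proteins of hepatocytes went both ways. Of 22 listed genes, 15 had 20 counts, of which 2 were higher and 4 lower by the size rule, with a median log2 ratio of -0.04 whose sign depended on the scaling. Higher were Serpina3n, a protease inhibitor also made outside the liver, with 217 counts in APAP and 73 in ctrl (2.68, 2.04 to 3.54), and the lipopolysaccharide-binding protein gene Lbp with 21 counts in APAP and 8 in ctrl (2.36, 1.01 to 6.17). Lower were Itih4 (5 counts in APAP and 24 in ctrl), Saa1, the fibrinogen gene Fga (18 in APAP and 45 in ctrl) and the hemopexin gene Hpx (26 in APAP and 59 in ctrl), with ratios of 0.188, 0.263, 0.360 and 0.397. Serpina3n belongs to a family of close copies, and reads may be shared among them. Hepatocyte markers, which include albumin and transthyretin (Ttr), known to decrease in an acute phase response, were lower too, as 9 of 9 had a ratio below 1 and their summed level was 206 CPM in APAP and 339 CPM in ctrl (0.579, 0.521 to 0.642). Albumin (Alb) had 272 counts in APAP and 423 in ctrl, and Ttr had 56 in APAP and 86 in ctrl. The part of hepatocyte RNA in the lower acute phase genes was not tested.

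**Figure D3:**
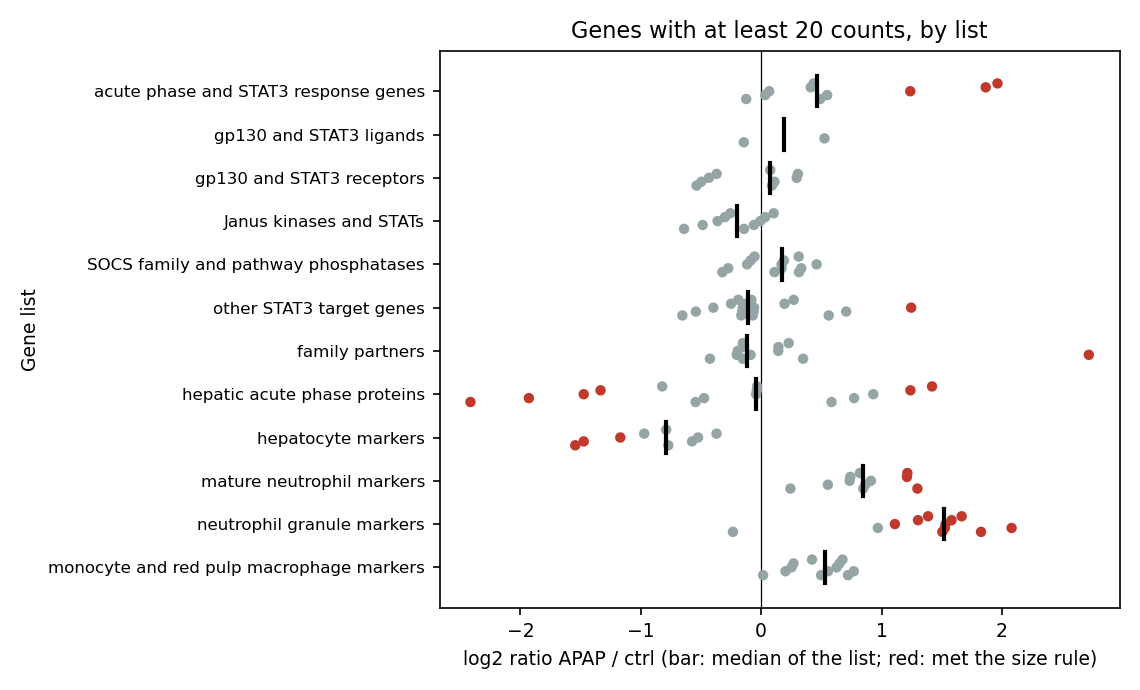
log2 ratio APAP / ctrl (x) of each gene with at least 20 counts in the acute phase and STAT3 response group and 11 other lists (y), with a bar for the median of each list and red points for genes that met the size rule. The medians were 0.46 for the group, -0.20 for Janus kinases and STATs, -0.11 for other STAT3 targets, -0.79 for hepatocyte markers and 0.85 for mature neutrophil markers.

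Markers of neutrophils, cells that are known to hold Lrg1, were higher in APAP beside Lrg1, Cebpd and Saa3. Of 13 markers of mature neutrophils, 11 had 20 counts, all 11 had a ratio above 1 and 3 met the size rule, and their summed level over all 13 was 3238 CPM in APAP and 1353 CPM in ctrl (2.28, 2.19 to 2.36). The most abundant were S100a8 with 4569 counts in APAP and 1672 in ctrl and S100a9 with 4006 in APAP and 1557 in ctrl. Of 12 genes of neutrophil granules, 10 met the rule as higher, and the sum was 1030 CPM in APAP and 356 CPM in ctrl (2.75, 2.56 to 2.96). Ngp had 818 counts in APAP and 232 in ctrl, and Camp had 528 in APAP and 220 in ctrl.

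Set against the summed mature neutrophil markers, Lrg1 was still 1.60-fold higher in APAP (1.28 to 2.02), and against the granule genes 1.32-fold (1.05 to 1.68). Against single genes, pairs chosen with the values known, Lrg1 stood at 1.15 (0.879 to 1.51) for Ngp and 1.03 (0.734 to 1.44) for Ltf. It stood at 1.48 (1.18 to 1.87) for S100a8 and 3.37 (1.98 to 5.71) for Csf3r, one of the listed receptors. For Cebpd (1.04, 0.749 to 1.46) and Saa3 (1.71, 0.689 to 5.09) the interval against the mature neutrophil markers included 1. Of the other 7 genes, 6 had an interval below 1 against these markers, from Bcl3 (0.403, 0.320 to 0.509) to Cebpb (0.617, 0.475 to 0.806), and that of Steap4 included 1 (0.643, 0.332 to 1.28). These relations rest on S100a8 and S100a9, which gave 91.6% of the marker sum in APAP and 87.2% in ctrl. The sum of the other 11 mature neutrophil markers was 272 CPM in APAP and 173 CPM in ctrl (1.5, 1.33 to 1.68). Against it Lrg1 (2.43, 1.90 to 3.14), Saa3 (2.60, 1.04 to 7.79) and Cebpd (1.58, 1.12 to 2.25) all had an interval above 1, Bcl3 (0.613, 0.474 to 0.793) and Pim1 (0.684, 0.531 to 0.881) had one below 1, and those of the other 5 genes included 1, among them Cebpb (0.938, 0.705 to 1.25) and Stat3 (0.903, 0.722 to 1.13). Against the granule genes without Ngp the counts were as with it, 1 gene with an interval above 1 and 6 with one below. The full sums of mature neutrophil markers (ratio 2.28) and of granule genes (2.75) lay above the median ratio of all genes (1.02). For none of the marker sums was the share of all genes above or below it counted, so these counts describe the 10 genes only. The part of neutrophil numbers in the ratios of Lrg1, Cebpd and Saa3 was not tested beyond these values.

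Markers of monocytes and red pulp macrophages were higher in APAP as well, with 12 of 12 above 1 and a sum of 5982 CPM in APAP and 4426 CPM in ctrl (1.29, 1.26 to 1.32), led by Lyz2 (7836 counts in APAP, 6130 in ctrl) and Vcam1 (2072 in APAP, 1320 in ctrl). Cebpb, Stat3 and Osmr had ratios close to this sum, with 1.09 (0.842 to 1.42), 1.05 (0.869 to 1.28) and 1.03 (0.701 to 1.54) against it. Lrg1 (2.83, 2.27 to 3.56), Saa3 (3.03, 1.22 to 9.02) and Cebpd (1.84, 1.33 to 2.57) exceeded it, and Bcl3 (0.714, 0.567 to 0.898) and Pim1 (0.796, 0.636 to 0.997) fell short of it. Stromal markers, from cells known to express Osmr, were mixed, with 7 of 11 above 1, 4 below, 2 intervals above 1 and 1 below. Their sum was 1751 CPM in APAP and 1380 CPM in ctrl (1.21, 1.16 to 1.26), led by Cxcl12 (2360 counts in APAP, 1413 in ctrl) and Cxcl13 (736 in APAP, 599 in ctrl). Against it Lrg1, Saa3 and Cebpd had an interval above 1 and Bcl3 one below, while Osmr stood at 1.10 (0.745 to 1.64) and Steap4 at 1.21 (0.625 to 2.42). Cxcl12 carried the difference, as the sum of the other 11 markers was 934 CPM in APAP and 863 CPM in ctrl (1.03, 0.974 to 1.09). Against that sum Cebpb (1.37, 1.05 to 1.79) and Stat3 (1.31, 1.08 to 1.60) had an interval above 1 as well, and none of the 10 genes had one below. Endothelial markers summed to 535 CPM in APAP and 425 CPM in ctrl, with Pecam1 (330 counts in APAP, 333 in ctrl) and Eng (362 in APAP, 233 in ctrl) the most abundant. Lrg1, Cebpd and Saa3 exceeded this sum, Lrg1 by 3.05 (2.41 to 3.87), and Bcl3 fell short of it (0.768, 0.603 to 0.978). Adipocyte markers, from a tissue in which Steap4 and the C/EBP genes are active, were lower in APAP, with 153 CPM in APAP and 256 CPM in ctrl. They were led by Cfd (134 counts in APAP, 307 in ctrl) and Fabp4 (170 in APAP, 225 in ctrl). All 10 genes exceeded their sum, whose ratio of 0.567 (0.502 to 0.640) lay below the median ratio of all genes (1.02). The share of all genes that exceed this sum was not counted. Against the summed lymphocyte markers, a sum led by Ighm, Lrg1, Saa3, Cebpd, Cebpb and Stat3 had an interval above 1. None of the 10 genes had one below 1 against that sum.

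**Figure D4:**
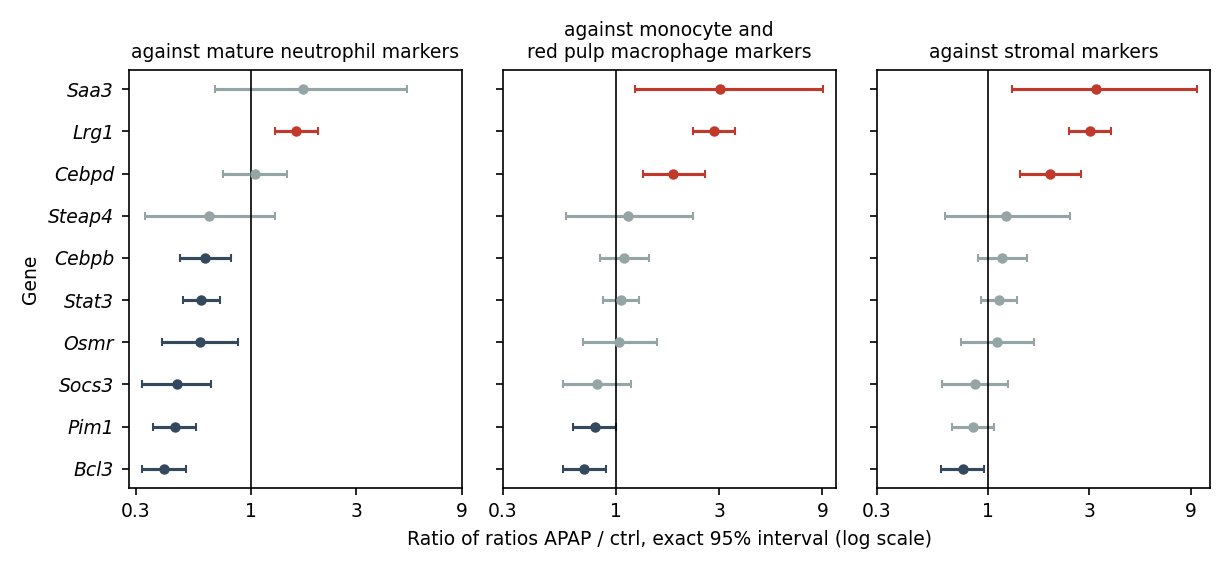
Ratio of ratios APAP / ctrl (x, log axis) of each gene against the summed counts of 3 marker lists, with exact 95% intervals, red where the interval lies above 1 and dark where it lies below. Against mature neutrophil markers the interval of Lrg1 alone lay above 1 (ratio of ratios 1.60). Against macrophage and stromal markers, and against mature neutrophil markers without S100a8 and S100a9 (not drawn), the intervals of Lrg1, Saa3 and Cebpd did.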

How the data were processed

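Splenic RNA was digested with DNase I, pooled per group and made into 1 library with the MACE-kit v.2. The authors removed duplicate reads by unique molecular identifiers, used cutadapt, clipped poly(A) tails, mapped to mm10 and counted with HTSeq; DESeq2 was named for differential expression. For the aligner, the annotation and the strand setting nothing is given in the sources used here. Every result rests on the unnormalised counts that the authors deposited. Values deposited under the heading TPM are CPM without division by length. The deposited signal columns hold counts over a size factor of the library. The deposited mean of the raw counts of both libraries, treated as a score, and the other means were not used.

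Size factors came from DESeq2 1.42.0 (R 4.3.3). Intervals of ratios derive from the Clopper-Pearson interval of the APAP share of a gene's reads, those of levels from the Poisson distribution and those of ratios of ratios from the exact conditional odds ratio (scipy 1.17.1). They cover counting error only. The rules were tested on simulated counts that held counting error only. The altered genes there had more counts and larger differences than the size rule requires, so that test did not cover genes near its limits. Positions and exon overlaps were taken from GENCODE M21 and promoters from RefSeq. Protein sequences were not analysed here. The 10 genes and all lists were chosen with earlier results of these data known. Named were all 10 genes, of the 7 other pathway lists those that met the size rule (at most 6) or else the 2 with the most counts, and of the marker lists the 2 with the most counts. A gene that this rule names is not reported here. Il6, Saa2, Stat5a, Cebpa, Stat5b, Hp, Ltf, Csf3r, Tmem189, Spidr, Gm26885, Gm16175 and the relations of single genes go beyond this rule and were chosen after values were seen. Alternatives were 5 other scalings, among them TMM factors (edgeR 4.0.16), other minimum counts and other size thresholds. Marker sums without their most abundant genes were added after seeing the data.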

Additional observations from a re-analysis of the deposited data

How the results depend on the processing

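Another scaling shifts all log2 ratios alike, here by -0.03 to 0.09. Under all 5 of them Lrg1 (3.57 to 3.87), Cebpd (2.31 to 2.51) and Saa3 (3.82 to 4.15) met the size rule, Cebpb and Stat3 kept an interval above 1, and Bcl3 stayed below 1 (0.900 to 0.975). The median log2 ratio of the 10 genes was 0.43 to 0.55 under other scalings and 0.42 with at least 50 counts. With at least 50 counts the rule was met by 2 genes, since Saa3 has 32, and with a 3-fold limit also by 2, since Cebpd lies at 2.36. With a limit of 1.5, or an interval that had to exclude 1.5, it was met by 3. Timp1 missed the rule with at least 50 counts, a 3-fold limit or an interval excluding 1.5, and Cebpe with at least 50 counts. For hepatic acute phase proteins the median turned to 0.05 with totals without haemoglobin and immunoglobulin genes, and Lbp missed the rule with TMM or upper quartile factors, which left 1 gene higher, whereas 3 were higher with library totals or totals without haemoglobin and immunoglobulin genes, as Hp (1.91) then passed 2-fold. The median of these proteins moved further, to -0.37, with a minimum of 1 count. With at least 50 counts, 1 of them was higher and 2 were lower by the rule. For the ligands, of which few had counts, the median turned to -0.15 with a minimum of 1 count and -0.14 with 50. Against the mature neutrophil sum without S100a8 and S100a9, 3 genes in place of 1 had an interval above 1 and 2 in place of 6 had one below. Against the stromal sum without Cxcl12, 5 genes in place of 3 had an interval above 1 and 0 in place of 1 had one below. No library could be left out, and variation between mice cannot be seen in these data. No paired analysis was possible because both groups consist of a single library.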
